A study of Mus musculus with 9 samples.

Results

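The difference between 2 strains of mice, the senescence-prone SAMP8 and the senescence-resistant SAMR1, was described here from 6 whole-transcript arrays, 3 of SAMP8 mice given water and 3 of SAMR1 mice given water, out of 9 arrays in all. The study took males 6 months old and gave water over 37 days before the tissue was collected, so the mice were older at collection. The study set these groups beside SAMP8 mice that received 3,4,5-tri-feruloylquinic acid (TFQA) at 1 mg/kg over the same period, and those 3 arrays entered only the shared estimate of the spread between arrays. Every transcript with a single gene symbol was kept, which left 19505 genes from 19572 of the 22206 transcripts in the table. Some of the brighter genes and other single genes are described first, then the places on the chromosomes where called genes crowded together. Cell types, pathways and gene families follow.

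SAMP8 and SAMR1 are inbred strains of the senescence-accelerated mouse collection, which descends from the AKR strain. SAMP8 mice lose learning and memory early and are used as a model of brain aging, and SAMR1 mice age at a normal pace and serve as their control. The strains are separate inbred lines, so a difference between them can be inherited at the gene itself, or follow from age, and a single age does not separate these. The labels name no further allele or agent for either group.

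The labels give the tissue as brain and the cell type as neural stem cells, and the study describes the arrays as hippocampal samples. The markers of neurons were bright: 14 of 14 general neuron genes were measured, and none of them lay among the 40% dimmest transcripts. Of 10 measured genes of neural stem cells and neuroblasts, 5 were among the 40% dimmest, as were 7598 of all 19505 genes. That count therefore does not set the list apart. Dcx, of this list, stood at log2 8.09, 7.69 and 8.18 in the SAMR1 arrays, at the 61.8 percentile by mean level. The proliferation gene Mki67 stood at log2 4.89, 5.24 and 5.50 in the SAMR1 arrays, at the 27.1 percentile of all genes by mean level. Because the neuron genes were bright, the signal is called brain tissue below, and no value is described as that of stem cells.

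Each value is a log2 signal, so a difference of 1 is a doubling of the signal. The 9 arrays had closely matched signals, with medians of 6.78 to 6.81 in the 6 water arrays. Over all transcripts the arrays of 1 strain correlated at 0.992 to 0.993, and arrays of different strains at 0.989 to 0.991. Nothing states that the arrays of a group came from separate animals, so the spread behind each p-value is that of these samples and could be technical.

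Of the 19505 genes, 45 rose in SAMP8 (0.231%) and 14 fell (0.0718%) at an adjusted p under 0.05 in limma, where adjustment followed Benjamini and Hochberg across the whole transcript table. These genes are called below. The smallest change among them was 0.81 on the log2 scale and the median size was 1.59. The study's own threshold, an unadjusted p under 0.05 and a fold change over 1.1, passed 618 genes higher (3.17%) and 524 lower (2.69%), and is used below only to describe gene groups. Each count for a gene group is to be read against these shares. In the whole transcript table it passed 754 higher and 599 lower (55.7% higher), and with each array centred on its median this balance turned to 624 higher and 757 lower (45.2% higher). All 3 SAMP8 arrays lay above all 3 SAMR1 arrays for 1079 genes (5.53%) and below them for 1171 genes (6.0%), and all 59 called genes had groups that did not overlap. Of the 59, 7 were among the 40% dimmest transcripts, where Fmod, Oas1g, H2-D1 and Prg4 lie, and a change there rests on low signal. The median difference over all genes was -0.02, and 46.9% of genes were higher in SAMP8.

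The call held in each of the 6 fits that left out 1 array for 34 of the 59 called genes, and was lost in at least 1 such fit for 25. The 6 genes Gm14305, H2-D1, Olfr1080, Olfr1243, Prg4 and Tmem267 lost it whichever array was left out (adjusted p 0.0502 to 0.226 over these genes and fits). Where a gene below lost its call, the arrays concerned are named and the range of its adjusted p without 1 array is given.

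Genes among the 20 brightest called ones are described singly, since no shared role was tested. Masp2, which encodes a protease of the lectin branch of complement, stood at 10.90, 10.50 and 10.74 in the SAMR1 arrays and at 9.50, 9.11 and 9.72 in the SAMP8 arrays. The groups were separated by a wide gap, and Masp2 fell by 1.27 (SE 0.19, adjusted p = 0.0063). The astrocyte receptor Ntsr2, a low-affinity receptor for neurotensin, stood at 12.33, 12.23 and 12.06 against 11.25, 11.04 and 11.21. Its SAMP8 arrays lay close together below every SAMR1 array, and it fell by 1.04 (SE 0.17, adjusted p = 0.0136), although the call was lost without any array other than SAMR1 water 3, with adjusted p between 0.0393 and 0.0836. Vtn encodes vitronectin, a matrix protein that pericytes of brain vessels express, and it stood at 11.31, 11.23 and 11.01 against 12.13, 12.60 and 12. Vtn rose by 1.06 (SE 0.18, adjusted p = 0.0215), with SAMP8 water 2 the highest, and its call was lost without any array other than SAMP8 water 3 (adjusted p 0.0298 to 0.135).

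**Figure D1:**
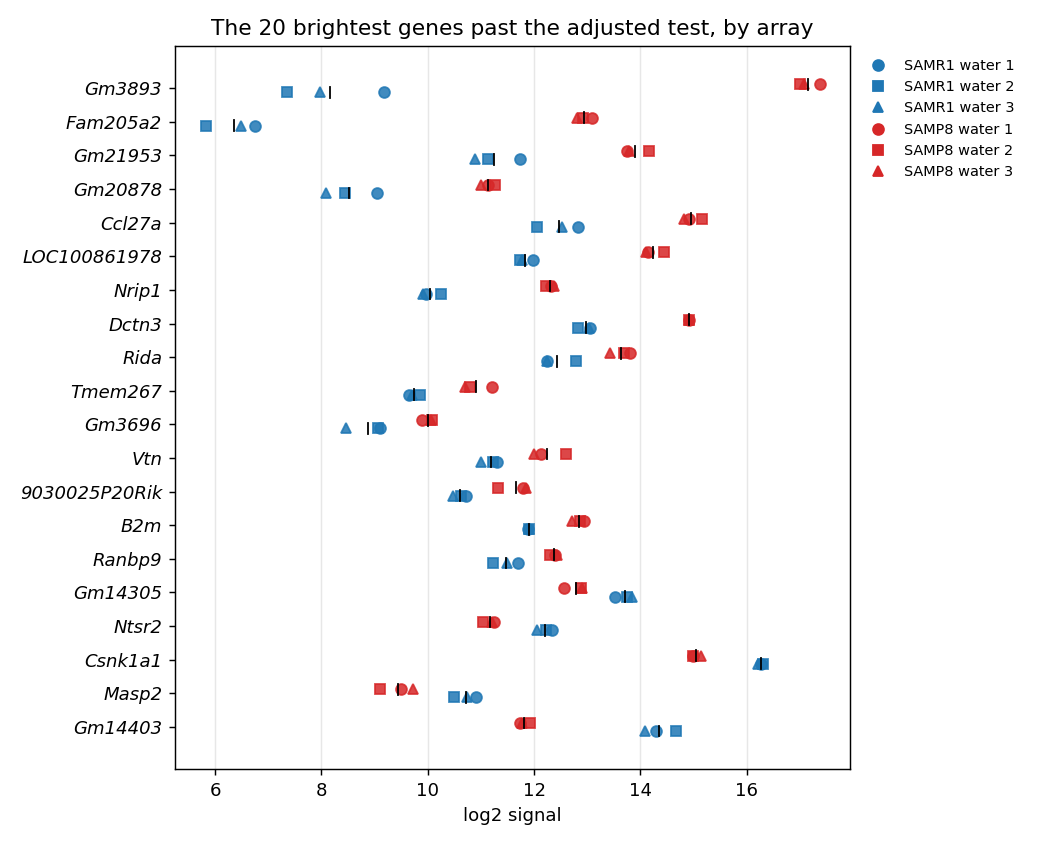
Log2 signal (x axis) of the 20 called genes with the highest mean signal over the 6 water arrays, with SAMR1 in blue, SAMP8 in red, 1 marker per array and a black tick at each group mean. In every row the blue and red markers do not overlap, and 15 of the 20 genes rose and 5 fell.

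Rida, a deaminase that clears reactive imine intermediates of amino acid metabolism, stood at 12.25, 12.78 and 12.24 against 13.80, 13.70 and 13.42. All SAMP8 arrays were higher, and Rida rose by 1.22 (SE 0.21, adjusted p = 0.0226), with the call lost without SAMR1 water 1, SAMR1 water 3, SAMP8 water 1 or SAMP8 water 2 (adjusted p 0.0179 to 0.141 over the 6 fits). Ranbp9, a scaffold protein that binds the GTPase Ran, stood at 11.70, 11.23 and 11.49 against 12.40, 12.29 and 12.44. It rose by 0.90 (SE 0.16, adjusted p = 0.0218), and the call was lost without any array other than SAMR1 water 1 (0.0264 to 0.118). Xdh, which was not among the 20 brightest and whose product makes uric acid from xanthine, stood at 5.80, 5.27 and 5.77 against 7.04, 7.01 and 6.93. The SAMP8 arrays were nearly equal to each other, and Xdh rose by 1.38 (SE 0.18, adjusted p = 0.00191) with the call held in all 6 fits.

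The calls of several called genes outside the 20 brightest also held without each array. P3h2, a prolyl hydroxylase that modifies collagen chains, stood at 8.94, 8.24 and 8.74 against 6.95, 6.86 and 7.02, and fell by 1.70 (SE 0.25, adjusted p = 0.00533). Slc18b1, a vesicular transporter of polyamines, stood at 8.84, 8.33 and 8.91 against 6.95, 6.8 and 7.25, and fell by 1.69 (SE 0.23, adjusted p = 0.00275). For both genes the lowest SAMR1 array was more than 1 log2 unit above the highest SAMP8 array. Tmem203, a membrane protein of the endoplasmic reticulum, stood at 9.0, 8.10 and 8.10 against 10.03, 10.09 and 9.86, and rose by 1.59 (SE 0.23, adjusted p = 0.00527). Mcrip1, a repressor partner that the MAP kinase pathway controls, stood at 8.57, 8.57 and 8.49 against 9.72, 9.69 and 9.64, and rose by 1.14 (SE 0.14, adjusted p = 0.00115). The arrays within each strain agreed closely for Mcrip1, and SAMR1 water 1 stood above the other SAMR1 arrays for Tmem203.

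Spink8 and Prss22 rose further. Spink8, a protease inhibitor gene that marks CA1 pyramidal cells in the mouse hippocampus, stood at 8.07, 7.97 and 8.58 against 10.07, 9.82 and 10.34. It rose by 1.87 (SE 0.21, adjusted p = 0.000727), and every SAMP8 array exceeded the highest SAMR1 array by more than 1 log2 unit. None of the other 7 measured genes of the CA1 list passed the adjusted test. The transcription factor gene Pou3f1 lay on the opposite side, at 8.36, 7.89 and 7.49 against 7.44, 7.35 and 7.14, a difference of -0.60 past the study's threshold with no overlap. Prss22, a serine protease, stood at 6.49, 5.71 and 5.41 against 8.51, 7.84 and 7.88, and rose by 2.21 (SE 0.26, adjusted p = 0.00115). The call of both Spink8 and Prss22 held in all 6 fits.

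Called genes were unevenly spread over the chromosomes. Of 19481 genes with a position, 57 were called (0.293%), and the share was highest on chromosome 4 (13 of 1173 genes, 1.11%), chromosome 14 (6 of 683, 0.878%), chromosome 17 (7 of 963, 0.727%) and chromosome 5 (7 of 1137, 0.616%). The called genes 4933409K07Rik and LOC100861978, both given on chromosome 4, were not counted as placed. No placed gene was called on chromosomes 3, 6, 8, 19, X or Y. The looser threshold of the study was spread more evenly, from 3.23% on chromosome 8 to 9.09% on chromosome 18 among the autosomes, against 5.85% of all placed genes.

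**Figure D2:**
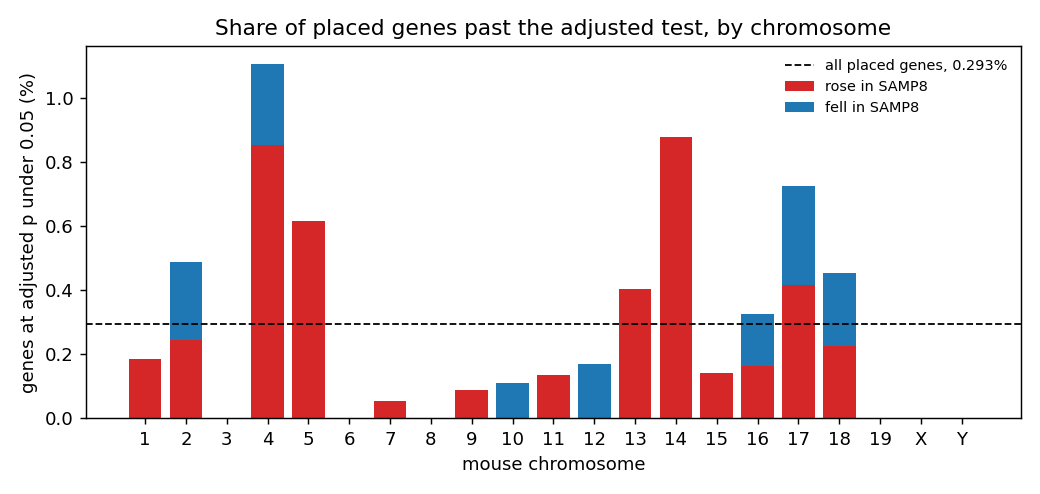
Share of placed genes called at an adjusted p under 0.05 (y axis, percent, starting at 0) on each mouse chromosome (x axis), with genes that rose in red and genes that fell in blue. The dashed line is the share over all placed genes, 0.293%, and chromosome 4 stands highest at 1.11%.

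In 3 windows of up to 2 Mb, 3 or more called genes lay together, and in each of them every called gene rose. On chromosome 4, 10 of the 16 placed genes between 41714798 and 42859820 rose, and 12 of the 16 passed the study's threshold as higher. The other 6 genes of the stretch were not called. Gm13304 and Gm10591 were higher by 0.78 and 0.86 at the study's threshold, with no overlap. The transcription factor gene Arid3c differed by 0.01 and Galt, an enzyme of galactose metabolism, by -0.36. The chemokine genes Ccl21a and Ccl21b differed by 0.08 and 0.32, and none of these 4 passed either threshold. On chromosome 14, 6 of the 7 placed genes between 5147818 and 7106256 rose, all of them predicted genes, while Gm8050 in the same window was lower by 0.88 at the study's threshold only. Gm3317 and Gm3488 had equal values on every array, so they are 1 measurement, although both are counted as genes in the counts and shares given here. On chromosome 5, Gm21671, Speer4a and Gm10471 rose between 25949797 and 26089264, and all 5 placed genes there passed the study's threshold. Speer4a lost its call without any array other than SAMP8 water 3 (0.0359 to 0.234), and Gm10471 lost it without SAMR1 water 1, SAMR1 water 3, SAMP8 water 1 or SAMP8 water 2 (0.0101 to 0.0784). On chromosome 14, Gm3500 lost its call without any array other than SAMR1 water 1 (0.0297 to 0.189), Gm10406 without any other than SAMP8 water 1 (0.0295 to 0.0803), and Gm3696 without any other than SAMR1 water 1 or 2 (0.033 to 0.0922). These are families of near-identical copies, so signal may be split or shared between members.

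The 51 called transcripts without a symbol had no position used here beyond the chromosome number in their identifiers. Of these, 17 were numbered to chromosome 14, of which 16 rose and 1 fell. Another 16 were numbered to chromosome 4 and 5 to unplaced pieces of chromosome 4, and all of them rose. The 3 numbered to chromosome Y fell, as did 1 numbered to chromosome 6 and 1 numbered to chromosome X.

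Close neighbours did not always move the same way. Abcb1a and Abcb1b, the paired mouse genes for the drug efflux pump P-glycoprotein, lie 49.6 kb apart on chromosome 5 and both rose. Abcb1b stood at 5.17, 6.12 and 6.34 against 7.39, 7.49 and 7.51, and rose by 1.59 (SE 0.25, adjusted p = 0.0117), with the call lost without SAMP8 water 2 or SAMP8 water 3 (0.00742 to 0.0581 over the 6 fits). The SAMP8 arrays were tightly grouped above all SAMR1 arrays. Gemin6, a component of the complex that assembles splicing particles, lies 61.7 kb from Morn2 on chromosome 17, and both fell. Gemin6 stood at 6.71, 6.18 and 6.49 against 5.64, 5.38 and 5.57, and fell by 0.93 (SE 0.17, adjusted p = 0.0356), with the call lost without any array other than SAMR1 water 2 (0.0286 to 0.177). Mrpl41 fell and Tmem203 rose on chromosome 2 with 280.3 kb and 14 placed genes between them. Gpank1 and H2-D1 lie 138.3 kb apart on chromosome 17 with 11 placed genes between them, where Gpank1 rose by 0.97 (SE 0.17, adjusted p = 0.0226) and H2-D1 fell by 0.82 (SE 0.16, adjusted p = 0.0457). Gpank1 lost its call without any array other than SAMR1 water 1 (0.0279 to 0.134), and H2-D1 lost it whichever array was left out (0.0629 to 0.226).

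Among 22 lists of cell type markers, those of the barrier tissues around the brain had the largest median differences between the strains. Of 16 measured genes of meningeal fibroblasts, 15 were higher in SAMP8 and 12 passed the study's threshold as higher, with a median difference of 0.79 against -0.02 over all genes. Fmod alone passed the adjusted test, and it was among the 40% dimmest. Fmod encodes fibromodulin, which binds collagen fibrils, and it stood at 4.49, 4.07 and 3.89 against 5.90, 6.96 and 5.90. It rose by 2.10 (SE 0.35, adjusted p = 0.0159), with SAMP8 water 2 well above the other SAMP8 arrays, and its call was lost without SAMR1 water 2, SAMR1 water 3 or SAMP8 water 2 (0.0315 to 0.106 over the 6 fits). The growth factor gene Igf2 stood at 8.86, 10.41 and 9.57 against 10.76, 11.59 and 10.83, a difference of 1.45 (SE 0.38, adjusted p = 0.243). The sulfate transporter gene Slc13a4 stood at 5.84, 5.97 and 5.57 against 6.59, 7.70 and 6.58, a difference of 1.16 (SE 0.28, adjusted p = 0.162). In Igf2, Slc13a4 and Fmod alike, SAMP8 water 2 was the highest array and the groups did not overlap.

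The mean deviation of the 16 meningeal genes from their 6-array mean was -0.60, -0.37 and -0.29 in the SAMR1 arrays and 0.22, 0.77 and 0.26 in the SAMP8 arrays. Leaving out SAMP8 water 2 lowered the median difference to 0.58 and the number past the study's threshold to 10, and leaving out SAMR1 water 1 lowered that number to 9. In whole tissue, more cells of a type and more RNA per cell cannot be told apart, and how much membrane was taken with each sample was not tested. The mean deviations of the endothelial, pericyte and smooth muscle, perivascular macrophage, red blood cell and hypothalamus lists did not overlap between the strains either. The red blood cell list rests on 2 measured genes of 6, without the haemoglobin genes, and neither passed the study's threshold.

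Choroid plexus epithelium, the tissue that secretes cerebrospinal fluid, showed a weaker separation. Of its 14 measured genes, 13 were higher in SAMP8, 8 passed the study's threshold as higher and 1 as lower, none passed the adjusted test, and the median difference was 0.68. Ttr, which encodes the thyroid hormone carrier transthyretin, stood at 17.70, 18.97 and 18.81 against 19.31, 19.43 and 19.02. SAMR1 water 1 was more than 1 log2 unit below the other arrays, and the remaining SAMR1 arrays lay close to SAMP8 water 3. The regulator gene Otx2 stood at 5.16, 6.61 and 6.26 against 6.81, 7.75 and 7.11, again with SAMR1 water 1 lowest. The list's mean deviation was -0.83, 0.22 and -0.23 in SAMR1 and 0.25, 0.58 and 0.00 in SAMP8, so the groups overlapped. Without SAMR1 water 1 the median difference was 0.35 and 2 genes passed the study's threshold as higher, and without SAMP8 water 2, or in the unmoderated ANOVA, it was 3 genes. Calml4, named after its values were seen, was the only member on the lower side, with a difference of -0.73 (adjusted p = 0.806).

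**Figure D3:**
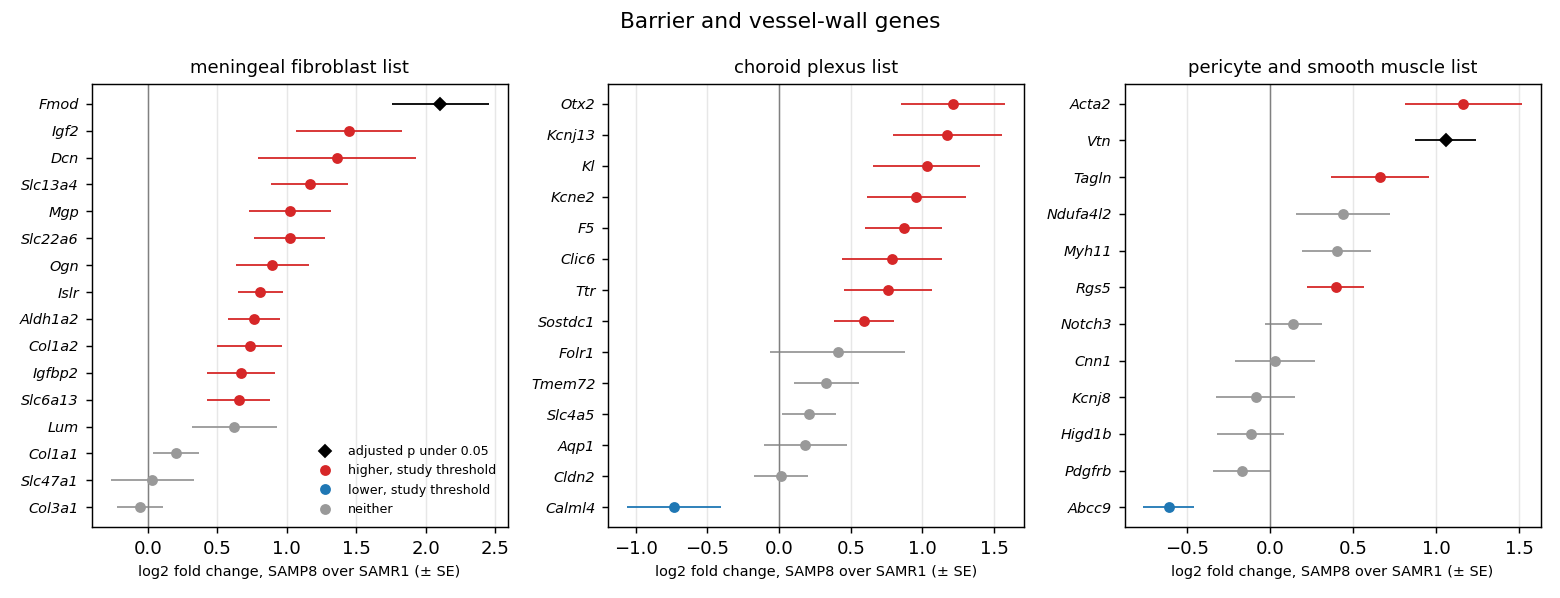
Log2 fold change of SAMP8 over SAMR1 (x axis, with bars of 1 SE) for each measured gene (rows) of the meningeal fibroblast, choroid plexus, and pericyte and smooth muscle lists, coloured by the threshold passed. In the first list 12 of 16 genes passed the study's threshold as higher, in the second 8 of 14, and in the third 4 of 12.

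Vessel-wall genes did not move as 1 group. Of 12 genes of pericytes and smooth muscle, 8 were higher in SAMP8 and 4 lower, 4 passed the study's threshold as higher and 1 as lower, and the median difference was 0.27. Vtn, described above, was the only one called. The contractile gene Acta2 stood at 6.30, 5.60 and 5.21 against 7.59, 6.75 and 6.26, with overlapping groups and a difference of 1.16 (SE 0.35, adjusted p = 0.409). Abcc9, a subunit of the potassium channel of pericytes, lay on the opposite side, at 6.23, 6.08 and 6.13 against 5.70, 5.40 and 5.51, with a difference of -0.61 (SE 0.15, adjusted p = 0.191). Without SAMR1 water 2 or without SAMR1 water 3, 2 genes of the list passed the study's threshold as higher, as also with each array centred on its median, and without SAMR1 water 3 the median was 0.13.

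Of 14 endothelial genes, 12 were higher and 2 passed the study's threshold, with a median difference of 0.19. The median was 0.11 without SAMR1 water 2, 0.12 without SAMR1 water 1 and 0.29 without SAMR1 water 3. The organic anion carrier gene Slco1a4, which acts at the blood-brain barrier, stood at 10.61, 11.07 and 10.53 against 11.66, 11.54 and 11.33, with no overlap and a difference of 0.77 (SE 0.19, adjusted p = 0.191). Ly6c1, a surface protein of brain endothelium, stood at 10.28, 10.20 and 10.18 against 10.68, 10.83 and 10.72. All 8 genes of perivascular macrophages were higher, but only Mrc1 passed the study's threshold, and the list's median difference was 0.12 (0.19 without SAMP8 water 3). Of the 8, 6 were among the 40% dimmest, 5 were higher without SAMP8 water 1, and none passed that threshold without SAMP8 water 2, without SAMR1 water 3 or in the unmoderated ANOVA.

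No general neuron, dentate or myelin gene passed either threshold. Of 14 general neuron genes, 2 were higher and 12 lower, and the median difference was -0.12. Without SAMR1 water 1 the median was -0.04, with 5 of the 14 higher. The dentate granule cell list held 7 genes higher and 5 lower of 12, with none past the study's threshold, and the CA2 and CA3 list held 4 higher and 8 lower of 12, with Prss35 (-0.95) and Cdh24 (-0.49) past it. Of 13 measured genes of oligodendrocytes and myelin, 2 were higher and 11 lower with none past the threshold. Their mean deviation was -0.14, 0.75 and -0.38 in SAMR1 and 0.03, 0.17 and -0.44 in SAMP8, so the spread within SAMR1 was wider than the difference between strains.

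Genes of regions that border the hippocampus also varied between arrays. Of 12 striatal genes, 1 was higher and 11 lower, but the mean deviation of the list was -0.35, 0.83 and 0.03 in SAMR1 and -0.29, 0.15 and -0.37 in SAMP8. The thalamus list went the other way, with 10 of 12 genes higher, and its mean deviation was -0.99, 0.89 and -0.31 in SAMR1 and 0.13, 0.83 and -0.55 in SAMP8. In both lists SAMR1 water 2 was the highest array and SAMR1 arrays spanned the SAMP8 arrays or nearly so, and no gene of either passed the study's threshold.

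**Figure D4:**
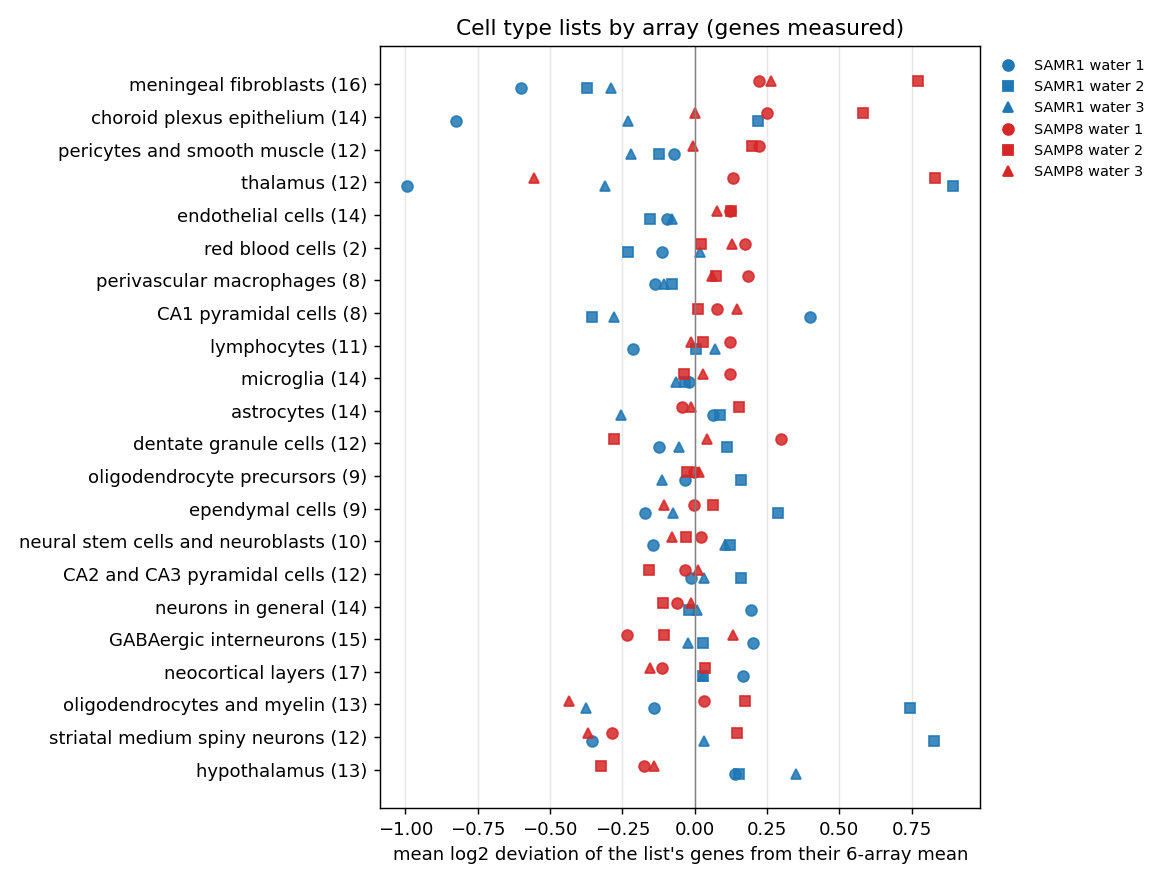
Mean log2 deviation of each cell type list's genes from their own 6-array mean (x axis), by array (SAMR1 blue, SAMP8 red, 1 marker shape per replicate), with the number of genes measured in brackets. The meningeal fibroblast list runs without overlap from -0.60 to -0.29 in SAMR1 and from 0.22 to 0.77 in SAMP8. The endothelial, pericyte and smooth muscle, perivascular macrophage, red blood cell (only 2 genes) and hypothalamus lists do not overlap either. The thalamus, striatal and myelin lists spread widely within SAMR1.

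The hypothalamus list was lower in SAMP8 in 12 of 13 genes, with a median difference of -0.24. Its mean deviation was 0.14, 0.15 and 0.35 in SAMR1 and -0.18, -0.32 and -0.14 in SAMP8, which did not overlap, but 10 of the 13 genes were among the 40% dimmest. Avp, the gene of the hormone vasopressin, stood at 6.70, 6.17 and 7.25 against 5.49, 5.22 and 4.71, a difference of -1.57 (SE 0.41, adjusted p = 0.236). Pmch, the gene of melanin-concentrating hormone, stood at 8.59, 7.40 and 6.81 against 5.98, 6.07 and 6.8, a difference of -1.32 (SE 0.47, adjusted p = 0.57). The groups stayed apart for both genes, by a margin of only 0.01 for Pmch.

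Astrocyte genes did not follow 1 direction. Of 14, 11 were higher in SAMP8 with a median difference of 0.06, 1 passed the study's threshold on each side, and the called gene was Ntsr2, which fell. Gfap, the intermediate filament of reactive astrocytes, lay on the other side, at 11.67, 11.90 and 11.34 against 12.56, 12.87 and 12.29. The groups did not overlap, with a difference of 0.94 (SE 0.19, adjusted p = 0.0718). The reactive astrocyte gene Serpina3n, a protease inhibitor, stood at 11.67, 11.50 and 11.51 against 12.59, 12.03 and 12.50, a difference of 0.81 (SE 0.27, adjusted p = 0.505). Of the 27 genes of the reactive astrocyte list, 18 were higher and 4 passed the study's threshold, all higher. Without SAMP8 water 2, without SAMR1 water 3 or in the unmoderated ANOVA, 2 passed, and the median of 0.11 was 0.04 without SAMR1 water 1 and 0.07 without SAMR1 water 2. Of 14 microglial genes, 10 were higher and none passed that threshold. The 19 genes tied to disease-associated microglia were divided, 10 higher and 9 lower, with a median of 0.09 and 2 past the threshold, both higher. Of these the lysozyme gene Lyz2 stood at 6.11, 6.23 and 5.36 against 7.37, 8.03 and 6.93, a difference of 1.54 (SE 0.33, adjusted p = 0.0969), while Cd52, named after its values were seen, differed by -0.51.

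Interferons induce a shared set of antiviral genes through the factor ISGF3, which binds a DNA word made of a repeated GAAA. Of 51 measured interferon-stimulated genes, 44 were higher in SAMP8, 12 passed the study's threshold as higher and none as lower, and the median difference was 0.26. Their mean deviation was -0.16, -0.14 and -0.12 in SAMR1 and 0.07, 0.25 and 0.10 in SAMP8, with SAMP8 water 2 the highest. Of the 51, 28 were among the 40% dimmest. Without SAMP8 water 2, 36 of the 51 were higher and 8 passed the study's threshold. Oas1g, an enzyme that makes the second messenger of the RNase L pathway, was the only one called, at 4.45, 4.52 and 4.31 against 5.37, 5.63 and 5.24. It rose by 0.99 (SE 0.16, adjusted p = 0.0159) with the call lost without any array other than SAMP8 water 3 (0.0321 to 0.103), and near-identical copies such as Oas1a may share its signal.

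Other members lay on the same side without passing the adjusted test. Ifi27, a mitochondrial protein, stood at 9.50, 8.82 and 9.26 against 9.98, 9.90 and 10, a difference of 0.77 (SE 0.19, adjusted p = 0.167). Sp100, a component of nuclear bodies, stood at 6.45, 6.46 and 6.96 against 7.83, 7.27 and 7.37, a difference of 0.87 (SE 0.21, adjusted p = 0.181). Neither gene's groups overlapped. All 11 measured guanylate-binding proteins and immunity GTPases, which attack vacuoles that hold pathogens, were higher, and 4 passed the study's threshold, with a median difference of 0.34. Most of these genes are also counted among the 51 interferon-stimulated genes. Of the 11, 7 were among the 40% dimmest transcripts, and with those left out 4 remained and 1 passed.

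Antigen presentation by MHC class I was mixed. Of 21 genes, 13 were higher and 8 lower, 4 passed the study's threshold as higher and 1 as lower. B2m, the light chain that all class I molecules share, stood at 11.89, 11.91 and 11.91 against 12.93, 12.86 and 12.72, and rose by 0.93 (SE 0.14, adjusted p = 0.00655) with the call held in all 6 fits. The SAMR1 arrays differed from each other by 0.02 at most. The heavy chain gene H2-T23 stood at 5.69, 6.07 and 5.64 against 6.54, 6.82 and 6.47, a difference of 0.81 (SE 0.21, adjusted p = 0.216), whereas the heavy chain gene H2-D1 fell, as given above. Heavy chain genes resemble each other closely and differ between strains, so their signals are uncertain.

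The word GAAANNGAAA, the interferon-stimulated response element, was searched on both strands in the 300 bases from 250 before to 50 after each RefSeq start (GRCm38.p6). It was found in 1131 of 32851 promoters (3.44%). Counted by gene, it was found in 618 of 15691 genes (3.94%), and in 25 of the 38 interferon-stimulated genes that had a promoter sequence (65.8%). All 7 guanylate-binding and immunity GTPase genes with a promoter held it, and 4 of 16 class I genes did. The stretches below show the called genes B2m and Oas1g and 4 of the genes with the word that passed the study's threshold, with Oas3 as a member on the lower side. They were picked after their values were seen. Other genes with the word that passed that threshold include Ifitm2 (0.54) and Ifit3b (0.86). Of the 25 interferon-stimulated genes with the word, 6 passed it as higher, and of the 13 without it, 4 did. Each reads along the gene's strand, and the capitals mark the word, or its reverse complement where the word lies on the other strand.
B2m, chr2:122147536-122147569, plus strand: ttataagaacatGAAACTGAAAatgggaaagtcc
Oas1g, chr5:120887614-120887637, minus strand: tctcgggaaatgGAAACTGAAAat
H2-T23, chr17:36032804-36032837, minus strand: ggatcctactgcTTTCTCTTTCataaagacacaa
Gbp3, chr3:142559993-142560026, plus strand: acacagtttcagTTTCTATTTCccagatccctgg
Tgtp2, chr11:49064261-49064294, minus strand: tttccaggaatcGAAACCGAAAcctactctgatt
Irgm2, chr11:58214901-58214934, plus strand: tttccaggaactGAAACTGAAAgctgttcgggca
Oas3, chr5:120777713-120777746, minus strand: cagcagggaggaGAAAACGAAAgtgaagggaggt

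Among these, the differences were 0.53 (SE 0.16) for Gbp3, 0.56 (SE 0.18) for Tgtp2 and 0.50 (SE 0.16) for Irgm2, all past the study's threshold, and -0.30 (SE 0.17) for Oas3. Having the word did not order the list. The 25 interferon-stimulated genes with it had a median difference of 0.20 and 23 of them were higher, and the 13 without it had a median of 0.30 and 10 of them were higher. Over all 15691 genes with a promoter, the 618 with the word had a median difference of 0.03 and 54.9% were higher, against -0.02 and 46.5% of those without it. A match to the word is a description of the sequence and not of a bound site.

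Chaperones of the endoplasmic reticulum (ER) fold secreted proteins, and their genes are induced by the unfolded protein response. Of 23 measured ER chaperone and unfolded protein response genes, 18 were lower in SAMP8, 4 passed the study's threshold as lower and none as higher, and the median difference was -0.21. Without SAMP8 water 1 or without SAMR1 water 2, 2 passed. Hspa5, the master chaperone BiP, stood at 15.22, 15.27 and 15.16 against 14.04, 14.59 and 14.61, with SAMP8 water 1 lowest and no overlap. The difference was -0.80 (SE 0.17, adjusted p = 0.0957). Xbp1, a transcription factor of the response, stood at 12.19, 12.12 and 12.01 against 11.46, 11.42 and 11.75, a difference of -0.56 (SE 0.22, adjusted p = 0.667). Herpud1, which helps to clear misfolded proteins, and the chaperone gene Hyou1 each differed by -0.44, and none of the 4 was called.

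**Figure D5:**
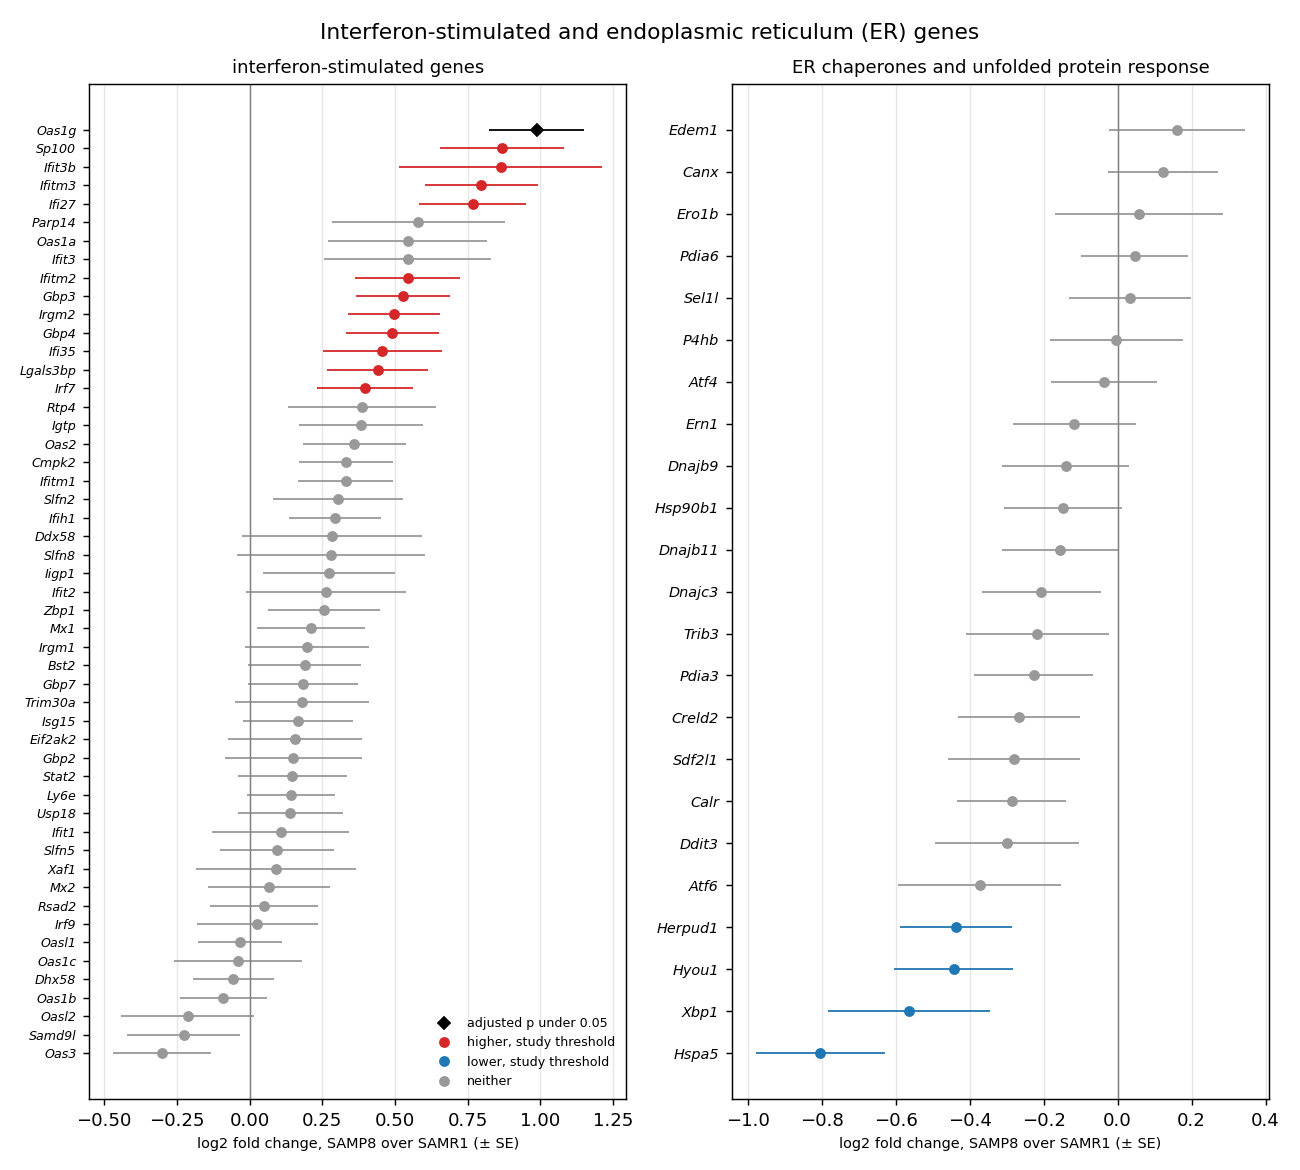
Log2 fold change of SAMP8 over SAMR1 (x axis, with bars of 1 SE) for each measured interferon-stimulated gene and each ER chaperone or unfolded protein response gene (rows), coloured by the threshold passed. On the left 44 of 51 genes lie above 0 and Oas1g alone is called, and on the right 18 of 23 lie below 0.

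The ER stress element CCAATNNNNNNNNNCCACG, the word through which the unfolded protein response reaches chaperone genes, was found in 39 of the 32851 promoters (0.119%). Counted by gene, it was found in 28 of 15691 genes (0.178%), and in 8 of the 21 ER genes with a promoter sequence (38.1%). The sequences below set Hspa5 beside bright chaperone genes whose values were nearer to each other, with Hsp90b1 chosen after its values were seen. Capitals again mark the word or its reverse complement.
Hspa5, chr2:34772013-34772055, plus strand: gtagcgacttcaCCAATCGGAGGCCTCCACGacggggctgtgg
Calr, chr8:84847063-84847105, minus strand: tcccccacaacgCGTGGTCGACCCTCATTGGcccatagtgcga
Hsp90b1, chr10:86705521-86705563, minus strand: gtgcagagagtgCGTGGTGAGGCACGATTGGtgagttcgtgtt
Canx, chr11:50325788-50325830, minus strand: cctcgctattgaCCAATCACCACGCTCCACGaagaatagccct

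Calr, a calcium-binding chaperone, stood at 14.40, 14.41 and 14.60 against 14.11, 14.09 and 14.35, a difference of -0.29 (SE 0.15). Its membrane-bound relative Canx stood at 14.36, 14.35 and 14.20 against 14.48, 14.38 and 14.42, a difference of 0.12 (SE 0.15), and Hsp90b1 differed by -0.15 (SE 0.16). The 8 ER genes with the word had a median difference of -0.18 and the 13 without it -0.16. Over all 15691 genes with a promoter, the 28 with the word had a median difference of 0.05 and 57.1% were higher. Those without it had -0.02 and 46.8%.

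No gene of the oxidative, metabolic and ribosomal lists that follow was called. Of 21 measured targets of the antioxidant factor Nrf2, 7 were higher and 14 lower. Of these, 2 passed the study's threshold as higher and 1 as lower (14.3%, against 5.9% of all genes). The cystine carrier gene Slc7a11 stood at 10.58, 10.99 and 10.76 against 11.69, 12.11 and 11.16, with no overlap and a difference of 0.88 (SE 0.23, adjusted p = 0.245). Of 43 subunits of respiratory complexes III to V, 33 were lower, with a median difference of -0.11. The study's threshold passed 2 as lower and none as higher (4.7%, against 5.9% of all genes on either side). The median was -0.06 without SAMR1 water 1 and -0.05 with the arrays quantile normalized again, and 1 gene passed without SAMP8 water 3. Cox6c, a subunit of cytochrome oxidase, stood at 16.77, 16.63 and 16.65 against 16.11, 16.25 and 16.16, a difference of -0.51 (SE 0.15, adjusted p = 0.346). The 46 complex I subunits were evenly divided, 24 higher and 22 lower, and so were the 63 cytosolic ribosomal proteins, 30 higher and 33 lower.

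No synaptic vesicle gene was called. Of 37 genes of synaptic vesicle release, 34 were lower and 3 passed the study's threshold as lower (8.1%, against 5.9% of all genes on either side). The median difference was -0.15, and -0.12 for the general neuron genes. The synaptic list's mean deviation ran from 0.03 to 0.18 in SAMR1 and from -0.12 to -0.08 in SAMP8, without overlap. For the general neuron list it ran from -0.02 to 0.20 and from -0.11 to -0.01, with overlap. Without SAMP8 water 1, SAMP8 water 3 or SAMR1 water 1, 1 synaptic gene passed. Without SAMR1 water 1 the synaptic median was -0.09 and 27 of the 37 were lower. Syn3, a synapsin that tethers vesicles, stood at 10.84, 11.01 and 11.07 against 10.14, 10.24 and 10.47, a difference of -0.69 (SE 0.19, adjusted p = 0.313). Of 25 calcium channel genes, 18 were lower and none passed that threshold, with a median difference of -0.15, which was -0.09 without SAMP8 water 2 and -0.10 without SAMR1 water 1. From a separate family, the G protein subunit gene Gng4 stood at 10.91, 11.08 and 11.87 against 10.27, 9.96 and 10.48, a difference of -1.05 (SE 0.23, adjusted p = 0.116). Both Syn3 and Gng4 had groups that did not overlap.

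Serpins, annexins and collagens held more genes higher than lower. Of 55 serpins, which inhibit proteases, 42 were higher, 6 passed the study's threshold as higher and none as lower, with a median difference of 0.11. Of the 55, 43 were among the 40% dimmest. Without SAMP8 water 2, 2 passed and the median was 0.07, and without SAMR1 water 1, 33 were higher, 4 passed as higher and 2 as lower, and the median was 0.06. Of 12 annexins, 10 were higher, and Anxa2, which binds membranes and calcium, stood at 4.88, 5.23 and 4.79 against 5.95, 7.14 and 5.94. SAMP8 water 2 was the highest array for Anxa2, and the difference was 1.38 (SE 0.29, adjusted p = 0.0837). Of 42 collagens, 31 were higher (24 without SAMR1 water 2). Past the study's threshold were 3 as higher and 1 as lower (9.5%, against 5.9% of all genes). Lamb2, the laminin chain of vascular basement membranes, stood at 7.91, 7.94 and 7.78 against 8.43, 8.92 and 8.87, a difference of 0.86 (SE 0.22, adjusted p = 0.191). Meningeal fibroblasts express collagens, laminins and annexins too, and the part of the meningeal list's difference in these families was not tested.

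Other families held differences on both sides or near 0. The 384 C2H2 zinc finger genes divided into 190 higher and 194 lower, with 11 and 21 past the study's threshold (8.3%, against 5.9% of all genes). Zfp414 stood at 8.64, 7.81 and 7.93 against 9.22, 8.94 and 9.49, a difference of 1.09 (SE 0.23, adjusted p = 0.0859), and had no overlap. Among 375 solute carriers, 186 were higher and 188 lower, and Slc18b1 was the only one called. The fructose carrier gene Slc2a5 stood at 5.58, 5.50 and 5.31 against 6.14, 6.53 and 7.22, a difference of 1.17 (SE 0.25, adjusted p = 0.0951). Of 20 clustered protocadherins, 13 were lower and 4 passed the study's threshold as lower, among them Pcdhb3 at -0.73 (SE 0.18, adjusted p = 0.164). None of the 55 Usp deubiquitinases and none of the 21 ephrins and their receptors passed that threshold.

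The sensory receptor families were mostly dim. Of 1091 olfactory receptor genes, 1038 were among the 40% dimmest transcripts, and 2 rose, where 0.231% of all genes rose. Of 321 vomeronasal receptor genes, 26 passed the study's threshold as higher and 11 as lower (11.5%, against 5.9% of all genes), and 1 rose. This was Vmn2r29, at 7.43, 7.72 and 6.23 against 9.81, 9.30 and 9.19, with a rise of 2.31 and the call held in all 6 fits. Vmn2r29 belongs to a family of close copies, so its signal may be shared.

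Of 9 measured housekeeping genes, 3 were higher and 6 lower. Gapdh differed by -0.04 and Actb by -0.08. Only Tbp, a subunit of the general transcription factor TFIID, passed the study's threshold, at 11.16, 11.08 and 11.26 against 11.78, 11.62 and 11.72, a difference of 0.54 (SE 0.14, adjusted p = 0.227). Its groups did not overlap. The amyloid-degrading protease gene Ide spread widely inside SAMP8, at 10.68, 10.15 and 10.45 against 8.31, 8.23 and 10.08. SAMP8 water 3 lay near the SAMR1 arrays, and the difference of -1.55 (SE 0.59) had an adjusted p of 0.648.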

How the data were processed

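RNA was hybridised to whole-transcript mouse arrays, and the authors summarised probes to transcripts by SST-RMA in the Transcriptome Analysis Console. The deposited values are normalized log2 signals, and the labels name RMA and the mm10 build. Normalization forces the arrays to a like distribution, so a shift shared by most genes would be lost. Probe sequences, and hence strain variants under them, were not examined here. Arrays give no read depth, and their number limits the precision. Values were fitted with limma 3.58.1 in R 4.3.3 over all 9 arrays, 1 coefficient per group, and p-values were adjusted over 22206 transcripts. The brightest transcript stood for a gene with several. Symbols and positions came from RefSeq (GRCm38.p6), and 77 listed genes were not analysed here. Members and lists were chosen with earlier results of these data known. Genes were named from the called ones, up to 4 members per list by p, 3 by level, the first 3 markers and the housekeeping genes. Not every such gene is described. The fit was tested on simulated data with known changes. It called 50 of 100 transcripts changed by 1 on the log2 scale and 96 of 100 changed by 2, with 3 false calls. A difference near 1 can therefore go uncalled. Array sets without each array, a replicate block, other normalizations, filters and tests were alternatives.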

Additional observations from a re-analysis of the deposited data

How the results depend on the processing

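Among all transcripts, 85 rose and 28 fell at an adjusted p under 0.05 in limma, and 754 were higher and 599 lower at the study's threshold. Counts moved by over 1.5 times in limma's trend and robust settings (43 fell), in a one-way ANOVA without moderation (32 rose, 8 fell), and with the 40% dimmest transcripts left out (474 higher at the study's threshold). Leaving out 1 array gave 62 to 68 that rose, 17 to 22 that fell, and 672 to 765 higher and 533 to 651 lower at the study's threshold, with the fewest falls without SAMP8 water 1 (17) and SAMR1 water 3 (18). Centring each array on its median turned the balance at the study's threshold from 55.7% higher to 45.2% higher, and this centring moved the median difference by -0.02. The main fit did not pair the samples by replicate number. Over all transcripts, deviations of same-numbered arrays correlated at 0.024, 0.153 and 0.045, which cannot show that the samples were unpaired. Replicate 2 was the highest array within each strain in the thalamus, striatal and myelin lists, but in the meningeal list only within SAMP8. Whether same-numbered arrays shared a batch was not tested. A fit with the replicate number as a block gave 79 that rose and 22 that fell. The alternatives were run for the 59 called genes and for 17 of the 93 lists, and among these no gene or list median reversed its direction. Of 876 gene values, 688 kept their side of the threshold and 188 fell short of it, and 240 list medians stayed within the spread while 15 moved. Of the 59 called genes, 15 passed in the unmoderated ANOVA and 50 with the block. The cause of these shifts was not tested. With 3 arrays a group the number of arrays limits which differences can be called.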
